A study of Homo sapiens with 12 samples.

Results

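Aminoacyl-tRNA synthetases join each amino acid to its transfer RNA, and so set the supply of charged tRNA for translation. Human cells keep a separate set for mitochondria, encoded in the nucleus by genes whose names mostly end in 2, while the cytosolic genes mostly end in 1. Several cytosolic enzymes sit in the multisynthetase complex, which the scaffold proteins AIMP1, AIMP2 and EEF1E1 hold together. Cytosolic synthetase genes are textbook targets of ATF4, the transcription factor of the amino acid response. The 38 genes listed here are 19 cytosolic synthetases, 16 mitochondrial ones and the 3 scaffold proteins, chosen by gene symbol from the probe annotation. A named probe set was found for 32 of them among 17687 genes. These were 16 cytosolic, 15 mitochondrial and 1 scaffold gene (AIMP1), and all 32 passed the filter on low signal that left 12774 genes. MARS1, QARS1, VARS1, TARS2, AIMP2 and EEF1E1 were not analysed here.

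The cells were MCF-10A, an immortalised but non-tumorigenic line of human breast epithelium with basal features, and their RNA was read on whole-transcript arrays. The groups were a co-culture of the HER2 L755S and PIK3CA E545K lines, the HER2 L755S line alone and the PIK3CA E545K line alone, with 4 arrays each. The labels give the extractions as quadruplicate without saying that each came from its own dish, so p-values measure the spread between these samples, which may be technical. HER2 L755S alters the kinase domain of a receptor of the EGFR family, and PIK3CA E545K alters a catalytic subunit of PI3K, a lipid kinase. All cultures had medium with a physiologic level of EGF and no further treatment. They were harvested between day 7 and day 14, at the point where droplet digital PCR put HER2 L755S cells at about 75% of the co-culture and PIK3CA E545K cells at about 25%. The labels name a single line per mutation and the harvest day of no array, so mutation, line and harvest day cannot be told apart. No MCF-10A culture without a mutation was analysed here, and probe sets for ERBB2 (HER2) and PIK3CA were not used, so the genotypes were not checked against signal.

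Values are log2 probe-set signals as the authors deposited them, and every difference below is on that log2 scale. Array medians were 6.41 to 6.49, and the 95th percentile of the 612 negative control probe sets was 6.37 to 6.66 on co-culture arrays, 6.73 to 7.12 on HER2 L755S arrays and 6.32 to 6.39 on PIK3CA E545K arrays. It thus stood highest on the HER2 L755S arrays, and its part in the results below was not tested. The highest signal of an array was 18.45 to 18.60, above the 16 that a 16-bit scanner can give on this scale, so a difference may not equal the log2 ratio of RNA amounts. Having 4 arrays in a group limits the precision. Of 8 markers of basal epithelium, 5 had a probe set and all exceeded the negative controls on every array, with means of 8.54 to 17.13 in the co-culture, 8.85 to 17.33 in the HER2 L755S culture and 8.26 to 17.44 in the PIK3CA E545K culture. All 6 measured markers of blood and endothelium lay below them on every array, with means of 3.78 to 5.53, 3.60 to 5.78 and 3.49 to 5.38 in the same order of cultures. Of 6 fibroblast markers, PDGFRA, PDGFRB and LUM were below the negative controls throughout, while COL1A2 and DCN exceeded them on every array. COL1A1 exceeded them on 1 co-culture array, 1 HER2 L755S array and 3 PIK3CA E545K arrays. COL1A2 averaged 8.68 in the co-culture, 8.58 in the HER2 L755S culture and 8.44 in the PIK3CA E545K culture. The list's means ran from 2.96 to 8.68, from 3.20 to 10.70 and from 2.98 to 8.44 in the same order. DCN of that list averaged 8.03 in the co-culture, 10.70 in the HER2 L755S culture and 7.07 in the PIK3CA E545K culture, which was not tested against the results below either.

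The HER2 L755S single culture carried less synthetase signal than the PIK3CA E545K single culture, and the shift was broad among cytosolic enzymes. Of 16 cytosolic genes, 13 were lower in the HER2 L755S culture, 1 (LARS1) was higher and 2 (FARSA and NARS1) did not pass a limma adjusted p of 0.05. Over all 12774 genes tested, 29.4% were lower and 30% higher in this comparison. Of 15 mitochondrial genes, 8 were lower, 2 (CARS2 and RARS2) were higher and 5 did not pass. The median difference was -1.17 over the cytosolic genes, -0.40 over the mitochondrial genes and 0.05 over all genes tested. A difference of at least 1 was reached, downward, by 9 cytosolic and 3 mitochondrial genes, and upward by none of the 32, while 12.2% of all genes were lower and 9.00% higher by that much.

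**Figure D1:**
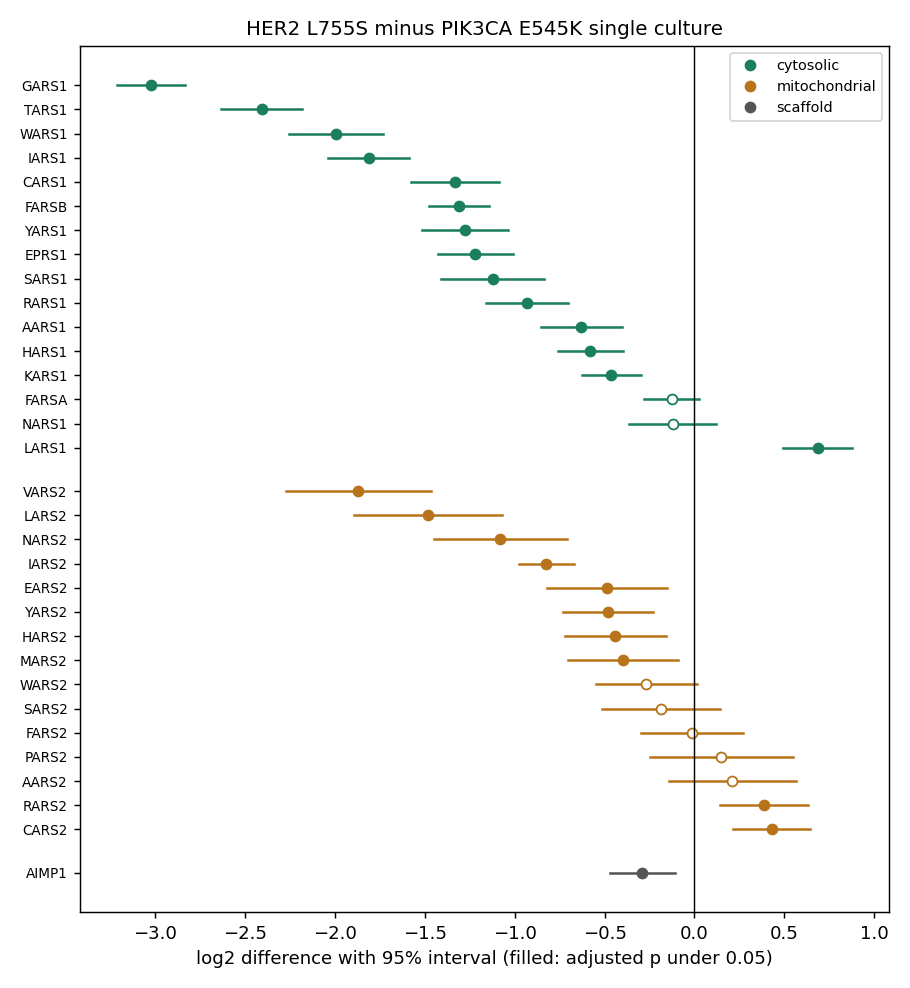
Difference in log2 signal, HER2 L755S minus PIK3CA E545K single culture, for each of the 32 measured genes by class. Points are the limma estimates, bars the 95% intervals, and filled points passed an adjusted p of 0.05. GARS1 lies farthest to the left at -3.02, and LARS1 is the cytosolic gene to the right of 0 that passed.

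GARS1, the glycine enzyme, which serves both compartments from the same gene, differed most. It read 14.80, 14.48, 14.51 and 14.90 in the co-cultures, 12.13, 12.31, 12.10 and 11.96 in the HER2 L755S cultures and 15.17, 15.18, 15.12 and 15.13 in the PIK3CA E545K cultures. The 3 groups did not overlap, with the HER2 L755S arrays far below both others. Its difference between the single cultures was -3.02 ± 0.09 (SE, limma adjusted p 4.37e-18), which is 8.12-fold lower signal in the HER2 L755S culture.

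TARS1, which charges threonine, read 13.29, 12.94, 12.97 and 13.03 in the co-cultures, 11.54, 10.99, 11.53 and 11.55 in the HER2 L755S cultures and 13.88, 13.81, 13.82 and 13.74 in the PIK3CA E545K cultures. Again the groups stood apart, and the second HER2 L755S array was the lowest of all 12. The difference between the single cultures was -2.41 ± 0.11 (SE, adjusted p 7.39e-15). WARS1, the tryptophan enzyme and a known interferon-inducible gene, read 12.86, 12.51, 12.52 and 12.80 in the co-cultures, 10.51, 10.71, 11.08 and 11.27 in the HER2 L755S cultures and 12.93, 12.83, 12.87 and 12.91 in the PIK3CA E545K cultures. The HER2 L755S arrays were again the lowest, while the co-culture arrays overlapped with the PIK3CA E545K arrays. WARS1 differed by -1.99 ± 0.13 between the single cultures (SE, adjusted p 3.48e-12).

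IARS1, the isoleucine enzyme of the multisynthetase complex, read 12.67, 12.27, 12.42 and 12.32 in the co-cultures, 10.81, 10.43, 10.70 and 10.35 in the HER2 L755S cultures and 12.48, 12.39, 12.37 and 12.30 in the PIK3CA E545K cultures. EPRS1, the bifunctional enzyme for glutamate and proline in the same complex, read 13.21, 12.90, 13.12 and 13.26 in the co-cultures, 11.88, 11.92, 12.12 and 11.65 in the HER2 L755S cultures and 13.05, 13.22, 13.20 and 12.98 in the PIK3CA E545K cultures. In both genes the co-culture arrays overlapped with the PIK3CA E545K arrays and lay clear of the HER2 L755S arrays. Between the single cultures IARS1 differed by -1.81 ± 0.11 (SE, adjusted p 1.11e-12) and EPRS1 by -1.22 ± 0.10 (SE, adjusted p 3.33e-10).

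CARS1, which charges cysteine, read 10.76, 10.50, 10.54 and 10.78 in the co-cultures, 9.08, 9.33, 9.45 and 8.99 in the HER2 L755S cultures and 10.57, 10.50, 10.45 and 10.65 in the PIK3CA E545K cultures. YARS1, the tyrosine enzyme, read 12.20, 11.84, 12.17 and 12.50 in the co-cultures, 10.77, 11.05, 10.74 and 10.68 in the HER2 L755S cultures and 12.06, 12.17, 11.99 and 12.11 in the PIK3CA E545K cultures. SARS1, the serine enzyme, read 12.63, 12.40, 12.43 and 12.98 in the co-cultures, 11.49, 11.42, 11.98 and 11.73 in the HER2 L755S cultures and 12.97, 12.42, 12.78 and 12.95 in the PIK3CA E545K cultures. All 3 genes repeated that order, with only the HER2 L755S arrays set apart. The differences between the single cultures were -1.33 ± 0.12 for CARS1, -1.28 ± 0.12 for YARS1 and -1.12 ± 0.14 for SARS1 (SE, adjusted p 1.1e-09, 1.79e-09 and 2.34e-07).

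**Figure D2:**
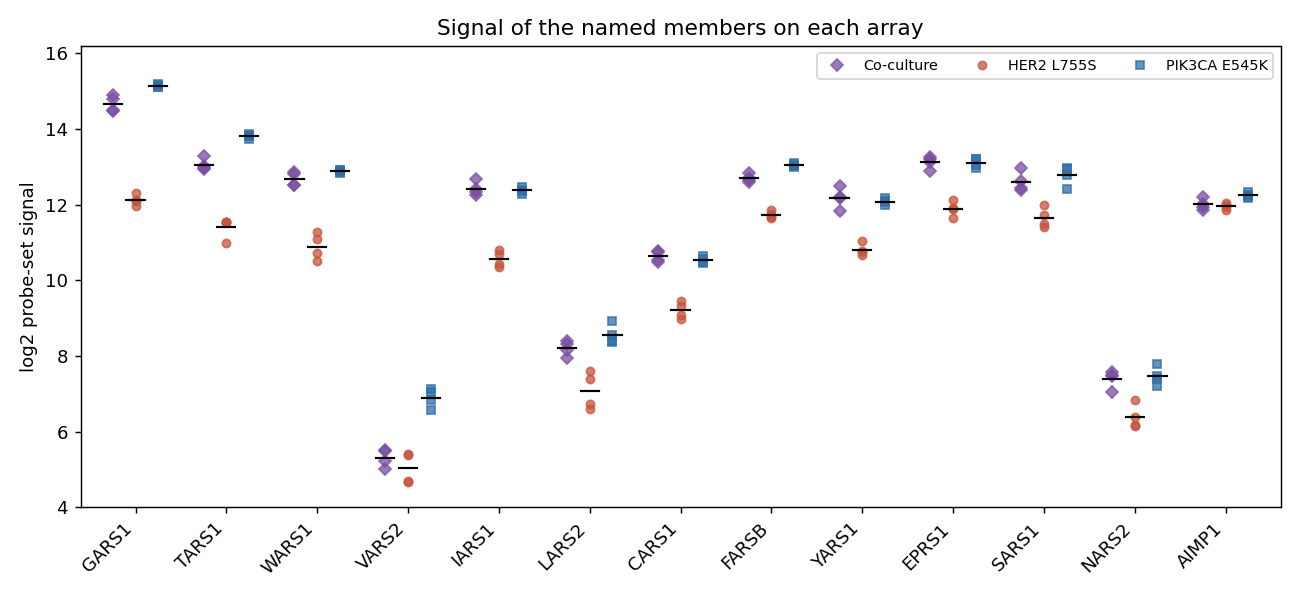
Log2 probe-set signal of 13 genes on each of the 12 arrays, by culture. Each point is an array and each black line a group mean. For GARS1 the HER2 L755S arrays lie between 11.96 and 12.31, below all co-culture arrays (14.48 to 14.90) and PIK3CA E545K arrays (15.12 to 15.18). Levels of different genes come from different probes and are not comparable.

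The phenylalanine enzyme is built from 2 subunits whose genes differed by unlike amounts. FARSB, the beta subunit, read 12.83, 12.71, 12.61 and 12.65 in the co-cultures, 11.76, 11.67, 11.65 and 11.85 in the HER2 L755S cultures and 13.10, 13.02, 13.01 and 13.04 in the PIK3CA E545K cultures. All 3 groups were apart, and FARSB differed by -1.31 ± 0.08 between the single cultures (SE, adjusted p 1.77e-12). FARSA, the alpha subunit, differed by -0.13 ± 0.07, with a 95% interval from -0.28 to 0.03 (adjusted p 0.144). The contrast between the subunits was not tested.

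LARS1, the leucine enzyme of the complex, ran against the other cytosolic genes. It read 12.58, 12.35, 12.45 and 12.63 in the co-cultures, 13.12, 12.82, 13.19 and 12.89 in the HER2 L755S cultures and 12.30, 12.24, 12.29 and 12.45 in the PIK3CA E545K cultures. Every HER2 L755S array exceeded every other array, and LARS1 was higher there by 0.69 ± 0.09 than in the PIK3CA E545K culture (SE, adjusted p 1.12e-06). That call was lost when the difference was tested against a margin of 0.5 (adjusted p 0.101). The remaining cytosolic genes were RARS1 (arginine) at -0.93, AARS1 (alanine) at -0.63, HARS1 (histidine) at -0.58 and KARS1 (lysine, serving both compartments) at -0.46, all lower in the HER2 L755S culture. NARS1, for asparagine, differed by -0.12, with a 95% interval from -0.36 to 0.12 (adjusted p 0.384). Of the 10 listed proteins of the multisynthetase complex, 6 were measured, of which 5 were lower in the HER2 L755S culture and LARS1 was higher. AIMP1, the scaffold, ran from 11.86 to 12.20 in the co-cultures, from 11.87 to 12.05 in the HER2 L755S cultures and from 12.19 to 12.33 in the PIK3CA E545K cultures. The single cultures did not overlap and differed by -0.29 ± 0.09 (SE, adjusted p 0.00669), a call lost under quantile normalization (-0.18, adjusted p 0.0785). By catalytic fold, 11 of 15 measured class I enzymes and 9 of 15 class II enzymes were lower in the HER2 L755S culture, and 3 and 0 were higher. Beside these counts and that of the complex stand the 29.4% of all genes lower and 30% higher.

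Promoters of cytosolic members often held the element that ATF4 binds together with C/EBP factors. The motif TGATGNAA was searched on both strands in RefSeq windows (GRCh38.p14) of 300 bases, 250 before and 50 after an annotated start, with 33 of the 38 genes matched. Among genes with a window, it occurred in 7 of 16 cytosolic genes (43.8%, counting MARS1, which was not analysed), 1 of 14 mitochondrial genes (7.14%) and 0 of 3 scaffold genes. Over all 27305 genes with a window the share was 4.46%, and 3.62% of all 35116 windows held it. No other motif was searched. Among the 26 genes of an amino acid response list that had a window, 9 held it (34.6%). The matches are shown on the strand of the gene with 11 bases on either side, with the match in capitals. In all but NARS1 and YARS2 the capitals are the reverse complement of the motif.
AARS1 (chr16:70289675-70289704, minus strand): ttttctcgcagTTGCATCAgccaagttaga
CARS1 (chr11:3057407-3057436, minus strand): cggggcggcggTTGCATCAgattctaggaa
GARS1 (chr7:30594834-30594863, plus strand): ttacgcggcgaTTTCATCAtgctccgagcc
IARS1 (chr9:92293692-92293721, minus strand): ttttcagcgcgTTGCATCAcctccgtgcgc
MARS1 (chr12:57488053-57488082, plus strand): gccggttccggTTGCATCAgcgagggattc
NARS1 (chr18:57621804-57621833, minus strand): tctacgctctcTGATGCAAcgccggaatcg
TARS1 (chr5:33440956-33440985, plus strand): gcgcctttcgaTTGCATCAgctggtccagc
YARS2 (chr12:32756076-32756105, minus strand): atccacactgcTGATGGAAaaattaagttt

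The same 8 letters, TTGCATCA, stood in AARS1, CARS1, IARS1, MARS1 and TARS1. Counted from the annotated start as 0, the match ran from -187 to -180 in AARS1, -33 to -26 in GARS1, -13 to -6 in IARS1, -2 to 5 in CARS1 and 2 to 9 in TARS1. The 250 bases before the GARS1 start are given as the setting of the match in the gene with the largest difference, with the match in capitals.
GARS1 (chr7:30594628-30594877, plus strand): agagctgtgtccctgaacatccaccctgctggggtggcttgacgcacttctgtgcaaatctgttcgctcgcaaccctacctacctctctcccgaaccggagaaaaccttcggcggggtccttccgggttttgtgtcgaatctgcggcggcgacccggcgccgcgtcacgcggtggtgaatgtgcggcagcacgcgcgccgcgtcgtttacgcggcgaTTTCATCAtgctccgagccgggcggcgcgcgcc

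A match is a description of these letters and no evidence of binding. The 6 measured cytosolic genes with a match had a median difference of -1.57 between the single cultures, from -3.02 (GARS1) to -0.12 (NARS1). The 8 with a window and no match had a median of -1.03, from -1.99 (WARS1) to -0.13 (FARSA), so the ranges overlapped widely. LARS1 (0.69) and YARS1 (-1.28) were measured but had no window, and are in neither set. HARS1 and HARS2 lie head to head on chromosome 5, with annotated starts 85 bases apart on opposite strands, and were lower in the HER2 L755S culture by similar amounts (-0.58 ± 0.09 and -0.44 ± 0.14, SE, adjusted p 5.09e-06 and 0.00747).

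Mitochondrial enzymes differed in both directions. LARS2, the mitochondrial leucine enzyme, read 8.31, 8.38, 8.16 and 7.93 in the co-cultures, 7.40, 7.61, 6.72 and 6.59 in the HER2 L755S cultures and 8.36, 8.55, 8.39 and 8.94 in the PIK3CA E545K cultures. NARS2, for asparagine, read 7.57, 7.03, 7.49 and 7.47 in the co-cultures, 6.16, 6.18, 6.84 and 6.37 in the HER2 L755S cultures and 7.79, 7.20, 7.48 and 7.39 in the PIK3CA E545K cultures. Both were lowest on the HER2 L755S arrays, and only 2 and 1 of those arrays exceeded the negative controls. LARS2 differed by -1.48 ± 0.20 and NARS2 by -1.08 ± 0.18 between the single cultures (SE, adjusted p 8.08e-07 and 1.53e-05). VARS2, for valine, read 5.52, 5.48, 5.00 and 5.22 in the co-cultures, 5.38, 4.65, 5.40 and 4.70 in the HER2 L755S cultures and 6.58, 7.05, 7.13 and 6.84 in the PIK3CA E545K cultures. It exceeded the negative controls on the 4 PIK3CA E545K arrays and on no other array. Its difference between the single cultures was -1.87 ± 0.20 (SE, adjusted p 1.84e-08), but no fold is given, since the PIK3CA E545K mean of 6.90 was below the mean 95th percentile of the negative controls on the HER2 L755S arrays (6.96).

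IARS2, the isoleucine enzyme of mitochondria, was bright and differed by -0.82 ± 0.07 (SE, adjusted p 1.62e-09). EARS2 (glutamate), YARS2 (tyrosine), HARS2 (histidine) and MARS2 (methionine) were lower in the HER2 L755S culture by smaller amounts, at -0.48, -0.48, -0.44 and -0.40. MARS2 lay below the negative controls on every array, and EARS2 on every HER2 L755S array. CARS2, for cysteine, was higher by 0.43 ± 0.10 and RARS2, for arginine, by 0.39 ± 0.12 (SE, adjusted p 0.00103 and 0.0068). The 5 that did not pass were WARS2 (-0.27), SARS2 (-0.19), FARS2 (-0.01), PARS2 (0.15) and AARS2 (0.21).

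Brightness differed between the classes. Averaged over the 12 arrays, 5 of the 15 mitochondrial genes (AARS2, EARS2, MARS2, PARS2 and VARS2) and 0 of the 16 cytosolic genes were at or below 6.62, the mean 95th percentile of the negative controls. Among the 10 brighter mitochondrial genes, 5 were lower and 2 higher in the HER2 L755S culture, with a median of -0.35. These 10 include LARS2 and NARS2, which did not exceed the negative controls on every HER2 L755S array.

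On each array, the class was summarised as the median over its genes of the signal minus the gene's mean over the 12 arrays. The cytosolic value was 0.42, 0.17, 0.19 and 0.40 in the co-cultures, -0.78, -0.79, -0.64 and -0.63 in the HER2 L755S cultures and 0.41, 0.42, 0.31 and 0.46 in the PIK3CA E545K cultures. The mitochondrial value was 0.01, -0.02, 0.07 and 0.01 in the co-cultures, -0.22, -0.25, -0.22 and -0.24 in the HER2 L755S cultures and 0.24, 0.09, 0.05 and 0.03 in the PIK3CA E545K cultures. In both classes the HER2 L755S arrays lay below all others. Cytosolic minus mitochondrial, the value was 0.12 to 0.42 in the co-cultures, -0.56 to -0.39 in the HER2 L755S cultures and 0.17 to 0.43 in the PIK3CA E545K cultures. On each of the 4 HER2 L755S arrays the cytosolic value was thus the lower of the classes, a description without a test.

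**Figure D3:**
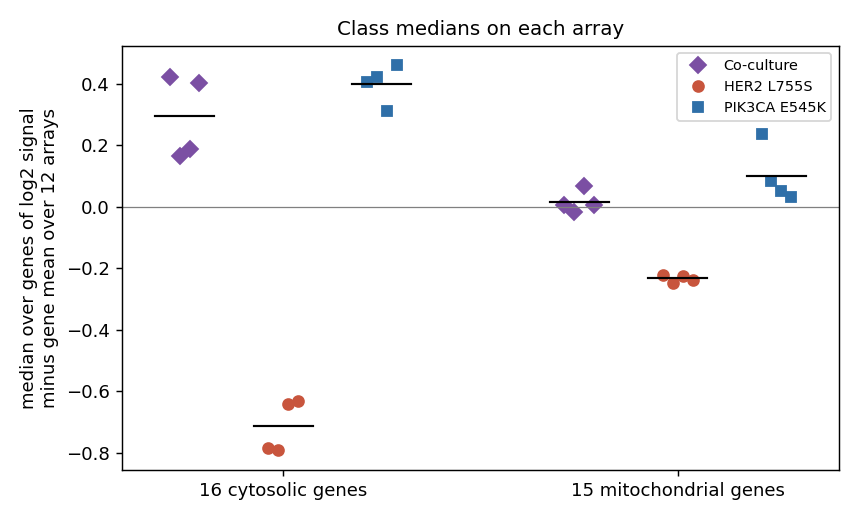
Median over the genes of a class of the log2 signal minus the gene's mean over the 12 arrays. Each point is an array and each black line a group mean. The HER2 L755S arrays lie at -0.79 to -0.63 for cytosolic genes and at -0.25 to -0.22 for mitochondrial genes, below the other arrays in both classes.

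Enzymes for the same amino acid were set side by side as the within-array log2 ratio of the cytosolic over the mitochondrial gene. In 14 such pairs, which share EPRS1 and FARS2 across pairs, the ratio was lower in the HER2 L755S culture with no overlap of arrays in 9 and higher with no overlap in 2. The remaining 3 overlapped. Non-overlap was not counted over other gene pairs, so these counts have no background share. Among single genes, 29.4% of all tested were lower and 30% higher in this comparison by limma. In 9 of the 14 pairs the mitochondrial gene exceeded the negative controls on every array of both lines, and of these 6 were lower with no overlap, 0 higher and 3 overlapped. In the other 5 (AARS2, EARS2, PARS2, LARS2 and NARS2) it did not, so those ratios rest on dim values. The ratio of CARS1 over CARS2 differed by -1.76 ± 0.17 and that of WARS1 over WARS2 by -1.73 ± 0.16 (SE, n = 4 arrays per line). The SE of each pair uses the variance averaged over all 3 groups, the co-culture included. The exceptions were leucine and asparagine, both among the dim pairs. LARS1 over LARS2 differed by 2.17 ± 0.28 and NARS1 over NARS2 by 0.96 ± 0.18. For histidine the difference was -0.14 ± 0.19.

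**Figure D4:**
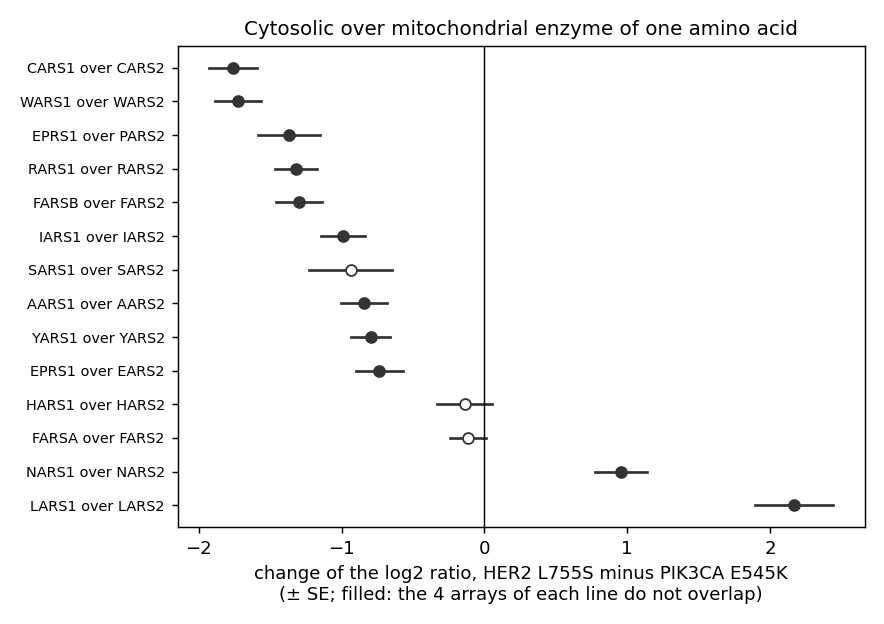
Difference in the within-array log2 ratio of the cytosolic over the mitochondrial gene of the same amino acid, HER2 L755S minus PIK3CA E545K, with its SE. Filled points mark pairs whose arrays did not overlap between the lines. The ratio was lowest in that comparison for CARS1 over CARS2 (-1.76) and was higher for LARS1 over LARS2 (2.17) and NARS1 over NARS2 (0.96), whose mitochondrial genes were dim in the HER2 L755S culture.

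The co-culture carried more cytosolic synthetase signal than the HER2 L755S single culture. A plain mixture with 25% PIK3CA E545K cells would also read higher for genes that were higher in that line. The comparison shares the HER2 L755S arrays with the first one, so its direction is not read as a separate result. Of 16 cytosolic genes, 14 were higher in the co-culture and LARS1 was lower, with 24.9% of all genes higher and 26.0% lower. Of 15 mitochondrial genes, 7 were higher, CARS2 and RARS2 were lower and 6 did not pass. The median difference was 0.98 over cytosolic, 0.32 over mitochondrial and -0.05 over all genes. GARS1 was higher by 2.54 ± 0.09, IARS1 by 1.85 ± 0.11, WARS1 by 1.78 ± 0.13 and TARS1 by 1.65 ± 0.11 (SE, adjusted p 1.8e-16, 1.37e-12, 4.58e-11 and 1.22e-11). Among mitochondrial genes LARS2 was higher by 1.12 and NARS2 by 1.01, while VARS2, below the negative controls in both cultures, differed by 0.28 ± 0.20 (SE, 95% interval -0.13 to 0.68, adjusted p 0.253).

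Against the PIK3CA E545K single culture, 8 of the 32 genes passed the test (25%), close to the 25.6% of all genes. This comparison shares the co-culture arrays with the previous one. Of 16 cytosolic genes, 1 was higher and 4 were lower in the co-culture, and of 15 mitochondrial genes 0 were higher and 2 were lower, with 11.1% of all genes higher and 14.6% lower. The medians were -0.10 for cytosolic, -0.09 for mitochondrial and -0.02 for all genes. The lower ones were TARS1 by -0.75 ± 0.11, GARS1 by -0.48 ± 0.09, RARS1 by -0.45 ± 0.11 and FARSB by -0.34 ± 0.08 among cytosolic genes (SE, adjusted p 1.75e-05, 0.000393, 0.00323 and 0.00269). Among mitochondrial genes, VARS2 differed by -1.59 ± 0.20 and IARS2 by -0.36 ± 0.07 (SE, adjusted p 2e-06 and 0.000761). VARS2 signal was at least 1.29-fold lower in the co-culture, taking the negative controls as its floor there. AIMP1 differed by -0.25 ± 0.09 (SE, adjusted p 0.0385), a call lost on leaving out any of 6 arrays (co-culture replicate 1, 2 or 3 or PIK3CA E545K replicate 1, 2 or 4, adjusted p 0.0667 to 0.120). It was also lost with no low-signal filter, quantile normalization, median centring or no variance trend (adjusted p 0.0541 to 0.0836). Against a tested margin of 0.5, VARS2 was the only one of these genes still called. That call rests on co-culture values below the negative controls, so it is no firmer than the bound of 1.29-fold.

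AARS1, the alanine enzyme, was the 1 gene of the 32 that passed as higher than in both single cultures, and 0 passed as lower than in both. It read 12.47, 12.24, 12.38 and 12.67 in the co-cultures, 11.68, 11.19, 11.38 and 11.53 in the HER2 L755S cultures and 11.92, 12.19, 12.03 and 12.14 in the PIK3CA E545K cultures. Every co-culture array exceeded every single-culture array. It was higher by 1.00 ± 0.11 than in the HER2 L755S culture and by 0.37 ± 0.11 than in the PIK3CA E545K culture (SE, adjusted p 5.78e-08 and 0.014). The second call was lost without PIK3CA E545K replicate 1 (0.32, adjusted p 0.0558) or without co-culture replicate 4 (0.29, adjusted p 0.0668). It was also lost against a tested margin of 0.5. Genes beyond both single cultures were not counted over all genes tested, so 1 of 32 has no background share.

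Set against the blend expected from the cell proportions, the co-culture carried an excess of cytosolic synthetase signal. The blend was 75% of the HER2 L755S mean and 25% of the PIK3CA E545K mean on the linear scale. Of 16 cytosolic genes, 13 were higher than the blend and LARS1 was lower, with 18.5% of all genes higher and 22.3% lower. Of 15 mitochondrial genes, 4 were higher (NARS2, LARS2, WARS2 and IARS2), CARS2 and VARS2 were lower and 9 did not pass. The medians were 0.59 for cytosolic, 0.21 for mitochondrial and -0.05 for all genes. IARS1 exceeded the blend by 1.15 ± 0.09, GARS1 by 1.07 ± 0.08, WARS1 by 0.98 ± 0.11 and CARS1 by 0.97 ± 0.10 (SE, adjusted p 1.67e-09, 5.53e-10, 2.49e-07 and 8.41e-08). LARS1 differed from it by -0.36 ± 0.09 and CARS2 by -0.37 ± 0.10 (SE, adjusted p 0.00187 and 0.00355). VARS2 differed by -0.46, a call lost without co-culture replicate 3 or 4, HER2 L755S replicate 1 or 3 or PIK3CA E545K replicate 2 or 3 (adjusted p 0.0570 to 0.147), and IARS2 by 0.21, lost without co-culture replicate 2 (adjusted p 0.0604) or under quantile normalization (0.12, adjusted p 0.152). With a HER2 L755S share of 65% the calls of IARS2 and LARS2 were lost (adjusted p 0.174 and 0.0663), and with 85% that of VARS2 was lost (-0.21, adjusted p 0.344) and RARS1 passed (0.29, adjusted p 0.0181). In a bulk culture, fewer cells of a line and less RNA per cell of that line cannot be told apart, and the blend assumes equal RNA per cell. It also assumes that unlogged signal is proportional to RNA amount, which the deposited values may not meet and which was not tested.

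**Figure D5:**
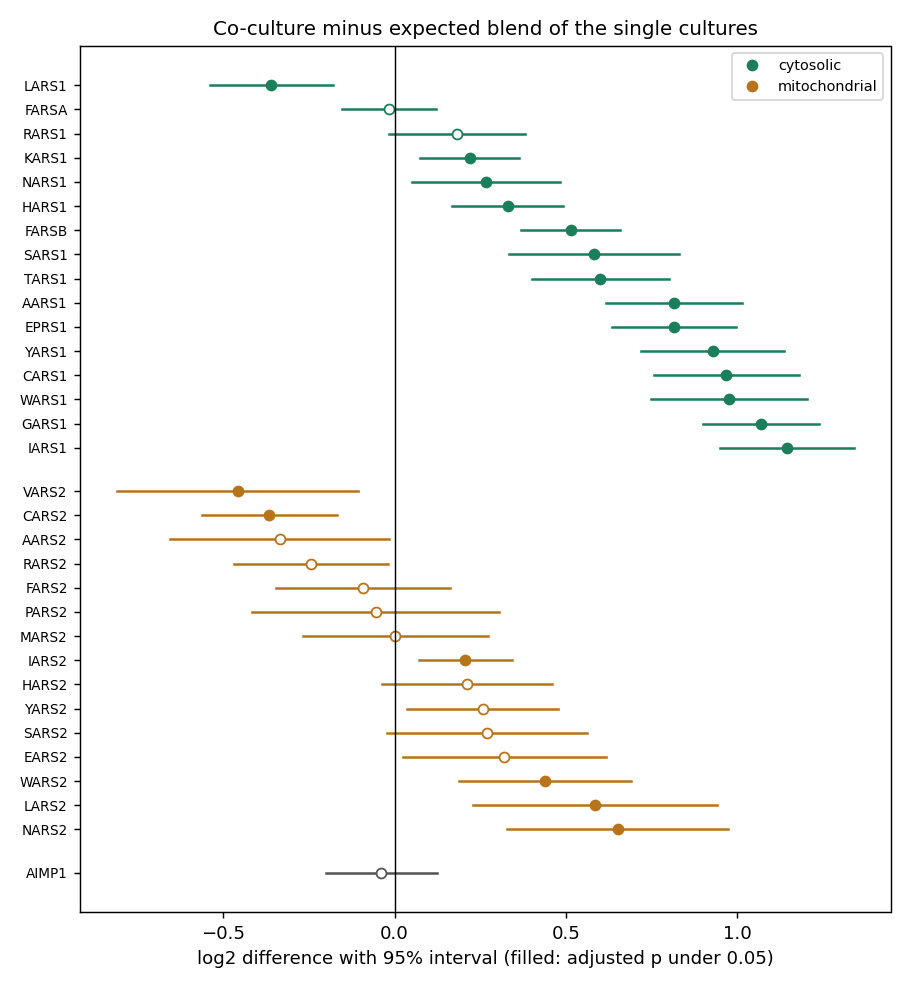
Difference in log2 signal, co-culture minus the blend of 75% HER2 L755S and 25% PIK3CA E545K, for each of the 32 measured genes by class, with AIMP1 in grey at the bottom. Bars are 95% intervals and filled points passed an adjusted p of 0.05. IARS1 reaches 1.15, and LARS1 (-0.36) is the cytosolic gene that passed to the left of 0.

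The place of the co-culture between the lines was described for the 12 genes lower by at least 1 in the HER2 L755S culture. On the linear scale, a blend of the cells would put each at 75% of the way from the PIK3CA E545K to the HER2 L755S mean. The median place was 19.4%, and 11 of the 12 were below 75%. CARS1 and YARS1 lay slightly beyond the PIK3CA E545K mean, at -12.1% and -11.1%, GARS1 at 32.1% and TARS1 at 50.1%. VARS2 was the exception at 92.1%, a place that uses dim values. The place was not worked out for other genes, so these percentages have no background. Over all genes tested, limma called 6503 for co-culture against HER2 L755S and 3273 for co-culture against PIK3CA E545K. The nearness to the PIK3CA E545K culture is therefore not read as particular to the synthetases.

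Other genes of amino acid and tRNA biology were read in the same contrast, in which 29.4% of all genes were lower and 30% higher. Textbooks place the amino acid response under ATF4, whose part in these data was not tested. In the list for that response, 22 of 31 measured genes were lower and 2 higher in the HER2 L755S than in the PIK3CA E545K culture. The median was -0.74. TRIB3, a pseudokinase that ATF4 induces, the cystine transporter gene SLC7A11 and STC2, a secreted stress-induced glycoprotein, had the largest differences. All 3 lay below the negative controls on every HER2 L755S array, so their signal there has only a bound. Taking the negative controls as the floor, it was at least 11.4-fold lower for TRIB3, 9.17-fold for SLC7A11 and 2.89-fold for STC2. In the co-culture, 24 of the 31 exceeded the blend and 3 were below it, with a median of 0.85, where 18.5% of all genes were above and 22.3% below. ATF4 itself, read because of that background, differed by -0.77 between the single cultures and by 0.97 from the blend (adjusted p 2.24e-07 and 2.86e-09).

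Of 20 tested genes for tRNA processing and export, 12 were lower and 1 higher in the HER2 L755S culture, with a median of -0.31. RPP40 (-1.57), POP1 (-1.32) and POP7 (-1.09), subunits of the RNase P and MRP family, led that list. Of 19 genes of RNA polymerase III and its factors, 6 were lower and 5 higher, with a median of 0.02 and a share lower close to that of all genes. POLR3G, a polymerase subunit, lay below the negative controls on every HER2 L755S array and was at least 5.56-fold lower there. The factor GTF3C6 differed by -1.37 and the subunit POLR3B by -1.08. Of 35 tRNA modification genes, 9 were lower and 4 higher, with a median of -0.08, and the share lower was again near that of all genes. The cytosine methyltransferase NSUN2 differed by -2.48, TRMT6 by -1.25 and TRMT10A by -1.20.

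Of 8 cytosolic elongation and termination genes, 3 were lower and 3 higher, with EEF1A2, a tissue-restricted elongation factor, higher by 3.72, EIF5A2 lower by -1.12 and the kinase EEF2K higher by 1.10. EIF5A2 exceeded the negative controls on only 2 of the 4 HER2 L755S arrays. Of 8 mitochondrial translation factors, 4 were lower and 2 higher, with MTRF1 higher by 1.04 and GFM1 and TSFM at -0.50 and -0.46. Among 9 other tRNA charging and proofreading genes, 3 were lower and 2 higher, with a median of -0.00. DTD1, a D-aminoacyl-tRNA deacylase, differed by -0.81, while TARS3 was higher by 0.57. SEPSECS passed as higher too, but lay below the negative controls on every array. Beside the counts of these small lists stand the 29.4% of all genes lower and 30% higher.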

How the data were processed

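Arrays were grouped by their titles. What the authors deposited is a log2 signal per probe set. The submitters' processing notes name the Transcriptome Analysis Console as the tool. Version, background correction, normalization and build are not given in the sources used here. Of 24351 probe sets, 17709 were named for 1 gene symbol. For 20 genes with several, none a listed gene, the brightest was used. Genes above the 30th percentile of their array on at least 4 arrays were kept. Limma 3.58.1 (R 4.3.3) fitted the 3 groups over all 12 arrays with trended empirical Bayes moderation. Tests were two-sided, with Benjamini-Hochberg adjustment over 12774 genes and a threshold of 0.05. The blend difference used delta-method weights. The method was tested on simulated data.

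Members and lists were chosen with earlier results of these data known. Array values are given for up to 12 members past adjusted p 0.05 with a difference of at least 1 between the single cultures, or at least 0.5 between the co-culture and the PIK3CA E545K culture, plus the top scaffold gene. LARS1 and AARS1 were added after their values were seen, as were ATF4 and any other gene outside the rule. Neighbouring lists name their top 3 genes.

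Same-numbered replicates did not deviate together (correlations -0.04 to 0.06 over 12 pairs), so the values show no pairing by number. Low correlations cannot tell whether same-numbered cultures were handled together. Alternatives covered the filter, normalization, variance model, probe-set choice, block, arrays fitted, margin, blend share and each replicate left out.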

Additional observations from a re-analysis of the deposited data

Results flagged for a closer look

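In 4 of 96 sets of 4 arrays (32 genes in 3 groups), a single array lay far from the other 3 by Dixon's gap test at the 95% level. Chance gives about 1 in 20. TARS1 read 10.99 on HER2 L755S replicate 2, against 11.53 to 11.55 on the others. PARS2 read 6.34 on co-culture replicate 4, against 5.65 to 5.67 on the others. WARS2 read 10.62 on the same co-culture array, against 10.20 to 10.24. YARS2 read 8.49 on HER2 L755S replicate 4, against 8.70 to 8.72.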

How the results depend on the processing

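Of 2290 recomputed values, 2199 kept their direction and side of the threshold or stayed within the spread or 1.5 times. With the replicate block, 13 cytosolic genes were still lower in the HER2 L755S culture, the count below the blend was 3 mitochondrial genes in place of 2, and the call of no named gene changed.

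A HER2 L755S share of 65% gave blend medians of 0.41 (cytosolic) and 0.12 (mitochondrial) with 2 mitochondrial genes higher, and a share of 85% a cytosolic median of 0.80. Quantile normalization gave a mitochondrial blend median of 0.12. Between the single cultures the mitochondrial median was -0.32 with arrays centred on their median and -0.46 with a filter at the 50th percentile.

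Against a tested margin of 0.5, the counts between the single cultures were 0 higher and 10 lower for cytosolic genes and 0 higher and 4 lower for mitochondrial genes. Co-culture against HER2 L755S then gave 0 cytosolic genes lower, and 2 mitochondrial genes higher and 0 lower. Co-culture against PIK3CA E545K gave 0 cytosolic genes higher or lower and 1 mitochondrial gene lower, VARS2, which lay below the negative controls on every co-culture array. The margin asks for a larger difference, so fewer calls follow from its construction. The share of all genes called at that margin is not given here, so these counts are not read as particular to the synthetases. An alternative chosen after seeing the data kept only genes brighter than the negative controls. It left 5 mitochondrial genes lower between the single cultures, 1 lower against PIK3CA E545K and 1 below the blend, and tests fewer genes by construction.

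Leaving out 1 array at a time, the mitochondrial median was -0.42 to -0.31 between the single cultures and 0.26 to 0.39 for co-culture against HER2 L755S. The mitochondrial count below the blend was 1 to 4 and the count lower than in HER2 L755S 1 to 3. That count was 1 without HER2 L755S replicate 1 or 4 or co-culture replicate 2. The cytosolic count higher than in PIK3CA E545K was 0 to 1. Signs turned in differences that passed no test. Co-culture against HER2 L755S, AIMP1 was -0.047 under quantile normalization, -0.013 with median centring and -0.023 to 0.089 with arrays left out, and against the blend -0.10 to 0.011. Co-culture against PIK3CA E545K, EPRS1 was -0.0032 under quantile normalization and -0.036 to 0.084 with arrays left out, IARS1 -0.048 to 0.088, CARS2 -0.10 to 0.013, NARS2 -0.16 to 0.045 and YARS1 -0.017 to 0.20. Apart from the margin and the brightness limit, the cause of these shifts was not tested. Signal over background limits 5 of the 15 mitochondrial genes, whose means did not exceed the negative controls. It also limits LARS2 and NARS2, which exceeded them on only 2 and 1 of the 4 HER2 L755S arrays.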
